A study of Drosophila melanogaster with 8 samples.

Results

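The genes described here are the cytosolic ribosomal protein genes of Drosophila melanogaster, read in S2 cells that carry the CLKGR construct. A gene was taken as a member when a probe set carried it as its single platform symbol and that symbol began with RpL or RpS and a digit, or was RpLP0, RpLP1 or RpLP2. This gave 41 genes of the 12071 named by a single symbol on either array type, 37 of 10845 on the older type and 41 of 11982 on the newer type. RpL15, RpL34a, RpL41 and RpS28-like were read on the newer type alone. RefSeq lists 92 protein-coding fly symbols of this form, so the family is covered only in part, and the other symbols were not analysed here. Each gene was represented on each array type by its brightest probe set. By known role, 30 of the 41 are the usual genes of the ribosome's subunits (27 of them on the older type), 8 are second copies of such genes, and 3 are relatives of ribosomal proteins that belong to ribosome assembly.

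The series holds 8 Affymetrix arrays of total RNA in 4 groups of 2. On the older array type, 2 arrays were labelled as treated with dexamethasone and cycloheximide (DEX) and 2 as treated with ethanol and cycloheximide (EtOH). On the newer type, 2 arrays carried the same DEX label and 2 were labelled V with cycloheximide. What V stands for is not given in the labels, and these arrays served as the control of their own table. CLKGR is a fusion of the clock activator CLOCK (CLK) with the steroid-binding part of the glucocorticoid receptor, so that dexamethasone sets the activator to work. All 8 arrays share the construct and cycloheximide, which stops the ribosome during elongation, so every comparison below is between cells given this inhibitor. How far translation was blocked is not given in the labels. The labels call 1 sample stably transfected. The labels name neither a clone nor separate cultures, so the p-values reflect only how far these arrays scatter, and that scatter may be technical.

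A eukaryotic ribosome has a small subunit that decodes the messenger RNA and a large subunit that forms peptide bonds. Most of its proteins are needed in equal number, and their genes are among the most strongly expressed of a growing cell. In flies many of them start transcription at a TCT initiator that works with the TBP-related factor Trf2, and their transcripts carry a pyrimidine-rich 5′ end through which TORC1 signalling controls translation. Ribosomal protein genes such as RpL32 (rp49) also serve as references in fly expression work, which makes their constancy under a treatment of practical interest.

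The labels were checked first on 4 known CLK targets. On the older type the arrays labelled DEX were higher in all 4: vri, the gene of a bZIP repressor, by 4.04 ± 0.26 log2 (SE, limma adjusted p = 0.0056), cwo by 2.91 ± 0.29 (adjusted p = 0.030), Pdp1 by 2.34 ± 0.17 (adjusted p = 0.010) and tim by 2.62 ± 0.41 (adjusted p = 0.143). On the newer type the arrays labelled DEX were lower in all 4, with differences from -2.07 to -2.90 log2 and no adjusted p under 0.05. With median centring of the older arrays 0 probe sets passed, these included. The difference between the effects on the types passed for vri, cwo and Pdp1. The direction of every DEX comparison on the newer type therefore rests on labels that these genes go against, and DEX there means only the arrays so labelled. Whether the labels of the newer type were exchanged could not be settled, so the family's results on that type and on both types together are also given with the newer sign turned. Of the markers of haemocytes, the blood cells whose traits S2 cells share, 14 of the 14 read passed the minimum level on the older type. On the newer 13 of the 15 read did, where PPO1 and Ppn lay below it, and none passed the test. Their mean log2 ran from 4.26 (PPO1) to 13.9 (Pxn) on the older type and from 3.86 (PPO1) to 15.9 (Fer1HCH) on the newer. Neuron markers ran from 3.77 (para) to 5.80 (elav) and from 4.03 (brp) to 5.73 (elav). Of the neuron markers 3 of 4 and 4 of 4 read passed the minimum, so passing it alone does not show presence. Between 20 and 21 members per array on the older type, and 29 on the newer, had deposited values above 65535, the top of a 16-bit scanner scale. The highest mean log2 of a probe set tested was 19.0 on the older type and 21.2 on the newer. No source used here gives the base with which the authors left the log scale, and the base was not tested. Were it the natural log, each log2 level, difference, SE and interval given here, and the minimum of 4, would be multiplied by 0.693. The p-values would stay the same.

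No ribosomal protein gene passed the test for a change with DEX on either array type, in the fit of both types, or in the difference between types. Of the 37 members on the older type 34 reached the minimum mean log2 of 4, and 0 passed the limma test, where 0.263% of the 10250 probe sets tested did. On the newer type 38 of 41 reached the minimum and 0 passed, with 0% of 12436 probe sets passing. In the fit of both types 0 of 36 members passed, with 0% of 8404 genes passing, and in the difference between types 0 of 36, where 0.297% of the genes did. The smallest member adjusted p was 0.846, 0.865, 0.901 and 1.000 in these 4 limma fits. At an unadjusted p under 0.05 there were 1, 1, 2 and 0 members, beside 600, 439, 308 and 401 of all features.

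The unadjusted intervals show, gene by gene, which sizes of difference these arrays allow under the main scaling. They are not the limit of the adjusted test, which did not call CLK target differences of -2.07 to -2.90 on the newer type. GCRMA, which made the deposited values, normalises by quantiles, and this can reduce a shift shared by the brightest probe sets. How far it did so here was not tested. For the 27 subunit genes of the older type, the 95% limma intervals of the DEX minus EtOH difference ran from -0.47 at the lowest bound to 0.57 at the highest, with a median half-width of 0.27 log2. For the 30 on the newer type the DEX minus V bounds lay between -0.36 and 0.62, with a median half-width of 0.23. The differences themselves spanned -0.24 to 0.25 against EtOH and -0.054 to 0.21 against V. Over all probe sets tested the median half-width was larger, 0.31 and 0.42.

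**Figure D1:**
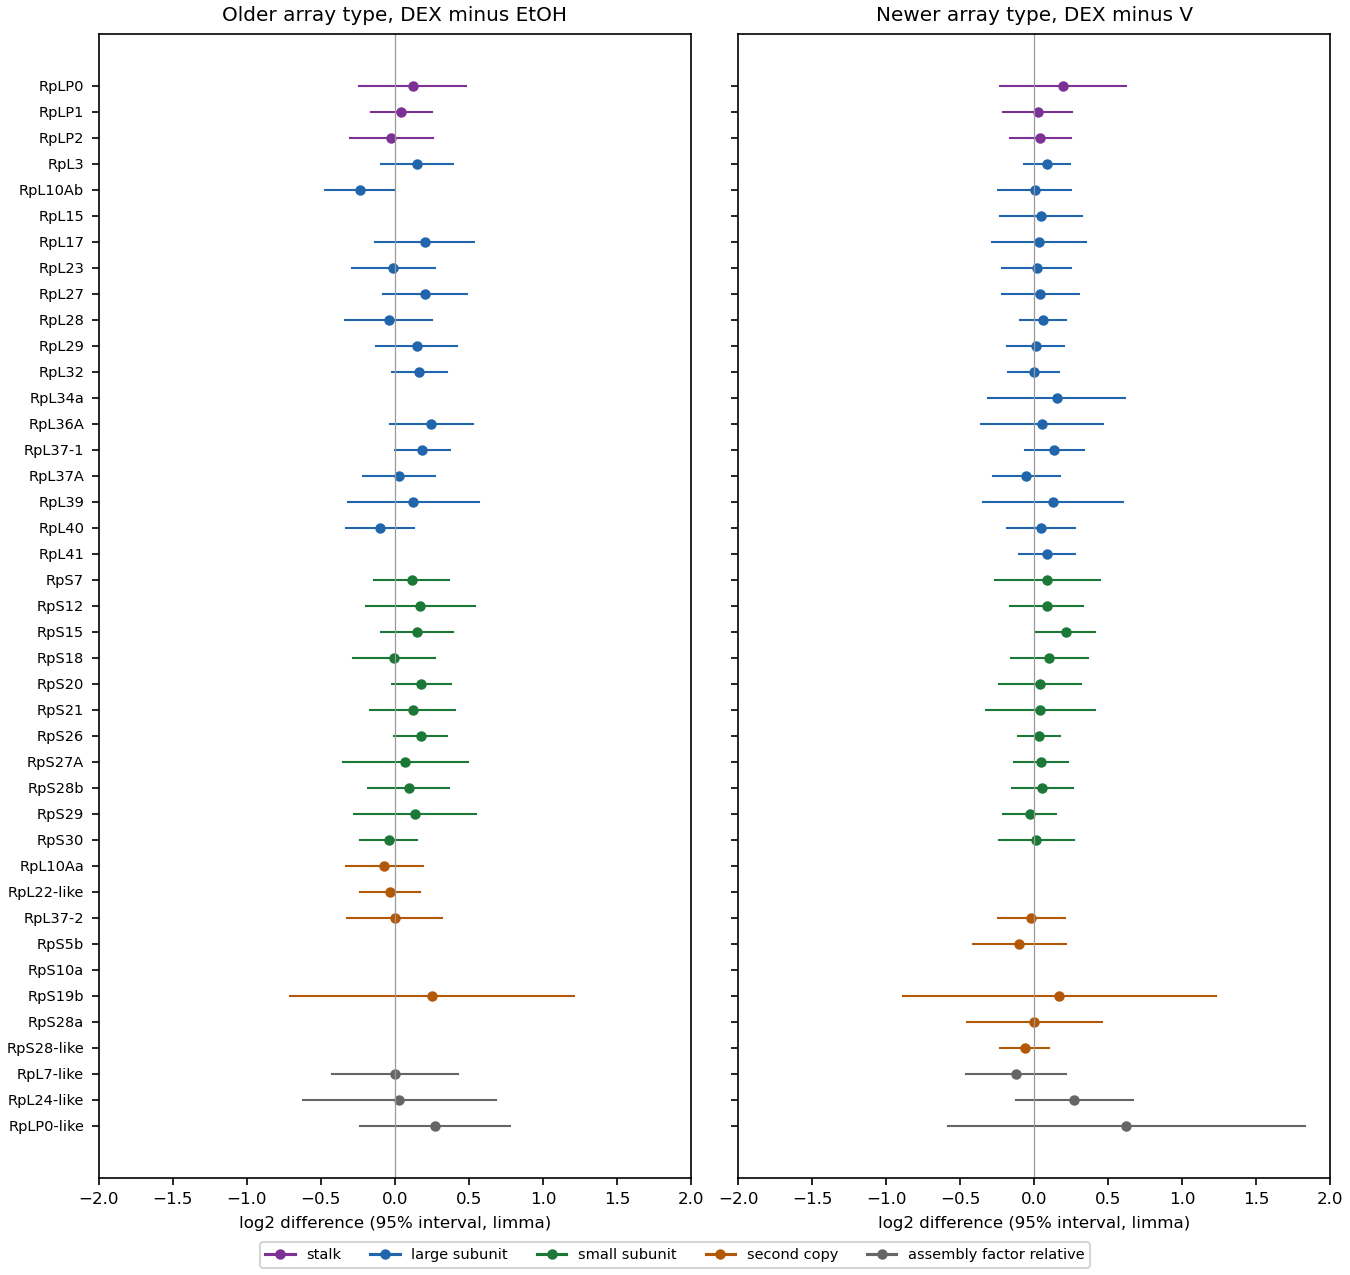
DEX minus control log2 difference (x axis) of each ribosomal protein gene that reached the minimum level, with its 95% limma interval, for the older type (against EtOH) and the newer type (against V); colours give the role. Subunit genes span -0.24 to 0.25 against EtOH and -0.054 to 0.21 against V. The widest intervals belong to RpS19b and RpL24-like on the older type and to RpLP0-like and RpS19b on the newer.

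The acidic stalk of the large subunit, which recruits and activates elongation factors, consists of RpLP0 with copies of RpLP1 and RpLP2. RpLP0, the base of the stalk, had log2 intensities of 15.58 and 15.41 on the DEX arrays and 15.52 and 15.22 on the EtOH arrays of the older type. The newer arrays labelled DEX had 18.58 and 18.50, and the V arrays 18.51 and 18.19. On both types 1 control array was the low one and the groups overlapped, with differences of 0.12 ± 0.15 and 0.19 ± 0.14 (SE). RpLP1 had 18.57 and 18.42 with DEX against 18.51 and 18.40 with EtOH, and 20.34 and 20.18 with DEX against 20.23 and 20.25 with V. RpLP2 had 16.42 and 16.61 with DEX against 16.62 and 16.46 with EtOH, and 18.66 and 18.54 with DEX against 18.56 and 18.55 with V. The groups of both genes overlapped on both types, and their differences were 0.044 and -0.024 on the older type and 0.025 and 0.042 on the newer. In the fit of both types the stalk genes differed by 0.16 ± 0.10, 0.034 ± 0.059 and 0.0091 ± 0.069 for RpLP0, RpLP1 and RpLP2.

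The other large subunit genes numbered 13 on the older type and 16 on the newer, of which 9 and 14 had a positive difference and 0 passed. Their median differences were 0.15 and 0.044 log2, beside -0.014 and -0.0045 over all probe sets tested. RpL3, whose protein reaches towards the peptidyl transferase centre, had 16.50 and 16.65 with DEX against 16.44 and 16.42 with EtOH, and 17.59 and 17.60 with DEX against 17.50 and 17.51 with V. Both DEX arrays stood above both control arrays on each type, by 0.15 ± 0.10 and 0.087 ± 0.051, which limma did not call (adjusted p = 1.000 and 0.865). RpL37-1, one of the zinc-binding proteins of the large subunit, had the same order: 17.93 and 18.01 with DEX against 17.75 and 17.81 with EtOH, and 19.48 and 19.60 with DEX against 19.38 and 19.42 with V. Its difference was 0.19 ± 0.076 on the older type and 0.14 ± 0.065 on the newer (adjusted p = 0.862 and 0.865).

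RpL36A and RpL27, further structural proteins of the large subunit, had the highest differences of this class on the older type. RpL36A had 17.59 and 17.44 with DEX against 17.39 and 17.14 with EtOH, a difference of 0.25 ± 0.11. RpL27 had 16.51 and 16.36 with DEX against 16.33 and 16.14 with EtOH, a difference of 0.20 ± 0.11. Their DEX arrays stood above their EtOH arrays, but on the newer type the groups overlapped. There RpL36A had 19.60 and 19.79 with DEX against 19.77 and 19.52 with V, and RpL27 had 17.60 and 17.50 with DEX against 17.58 and 17.44 with V. RpL32, known as the reference transcript rp49, had 17.98 and 18.08 with DEX against 17.86 and 17.88 with EtOH on the older type, a difference of 0.16 ± 0.076 with no overlap. The newer arrays read it at 18.96 and 19.05 with DEX against 19.02 and 18.99 with V, and its difference was -0.0029 ± 0.056.

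RpL10Ab, the protein of the L1 stalk where spent transfer RNA leaves, was the member furthest in the other direction on the older type. It had 16.82 and 16.85 with DEX against 16.99 and 17.15 with EtOH on the older type, so that both DEX arrays lay below both EtOH arrays. The difference of -0.24 ± 0.096 had the smallest unadjusted p of the members on that type (0.049) and an adjusted p of 0.846. With the newer arrays RpL10Ab had 18.21 and 18.31 with DEX against 18.32 and 18.19 with V, a difference of 0.0031 ± 0.080. RpL40, which is made as a fusion with ubiquitin, had 16.27 and 16.30 with DEX against 16.36 and 16.41 with EtOH, the other subunit gene with both DEX arrays below on the older type. Its groups overlapped on the newer type, at 17.59 and 17.73 with DEX against 17.63 and 17.60 with V. RpL37A, a different protein from RpL37-1 despite its name, had the lowest subunit difference of the newer type, at 18.70 and 18.65 with DEX against 18.80 and 18.66 with V, a difference of -0.054 ± 0.074. The 3 large subunit genes read on the newer type alone were RpL15, RpL34a and RpL41, with differences of 0.045 ± 0.090, 0.15 ± 0.15 and 0.086 ± 0.061.

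All 11 small subunit genes were read on both types, and 9 on the older and 10 on the newer had a positive difference, with 0 passing and medians of 0.12 and 0.043 log2. RpS15, a protein of the head of the small subunit, had 16.17 and 16.12 with DEX against 15.97 and 16.01 with EtOH, and 17.88 and 17.89 with DEX against 17.72 and 17.62 with V. It was above its controls on both types, by 0.15 ± 0.099 and 0.21 ± 0.064. The second of these was the highest subunit difference of the newer type (limma unadjusted p = 0.041, adjusted p = 0.865). RpS20, also of the head, had 17.42 and 17.46 with DEX against 17.30 and 17.23 with EtOH, a difference of 0.18 ± 0.081 without overlap. Its newer-type groups overlapped, at 18.50 and 18.66 with DEX against 18.49 and 18.59 with V.

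RpS26, which lies where the messenger RNA leaves the ribosome, had 18.29 and 18.26 with DEX against 18.16 and 18.05 with EtOH, a difference of 0.17 ± 0.074. Against V it had 19.606 and 19.622 with DEX and 19.605 and 19.563 with V, so the lack of overlap there rests on 19.606 against 19.605. RpS30, a small basic protein of the small subunit, was the small subunit gene with the lowest older-type difference, -0.043 ± 0.080, at 17.62 and 17.71 with DEX against 17.75 and 17.67 with EtOH. RpS28b, the usual gene of its protein, had 16.75 and 16.70 with DEX against 16.75 and 16.51 with EtOH, and 18.07 and 18.11 with DEX against 18.09 and 17.98 with V. Its groups overlapped on both types. RpS12, known for its part in competition between fly cells, differed by 0.17 ± 0.15 and 0.083 ± 0.081, and RpS27A, the other ubiquitin fusion, by 0.072 ± 0.17 and 0.043 ± 0.060.

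**Figure D2:**
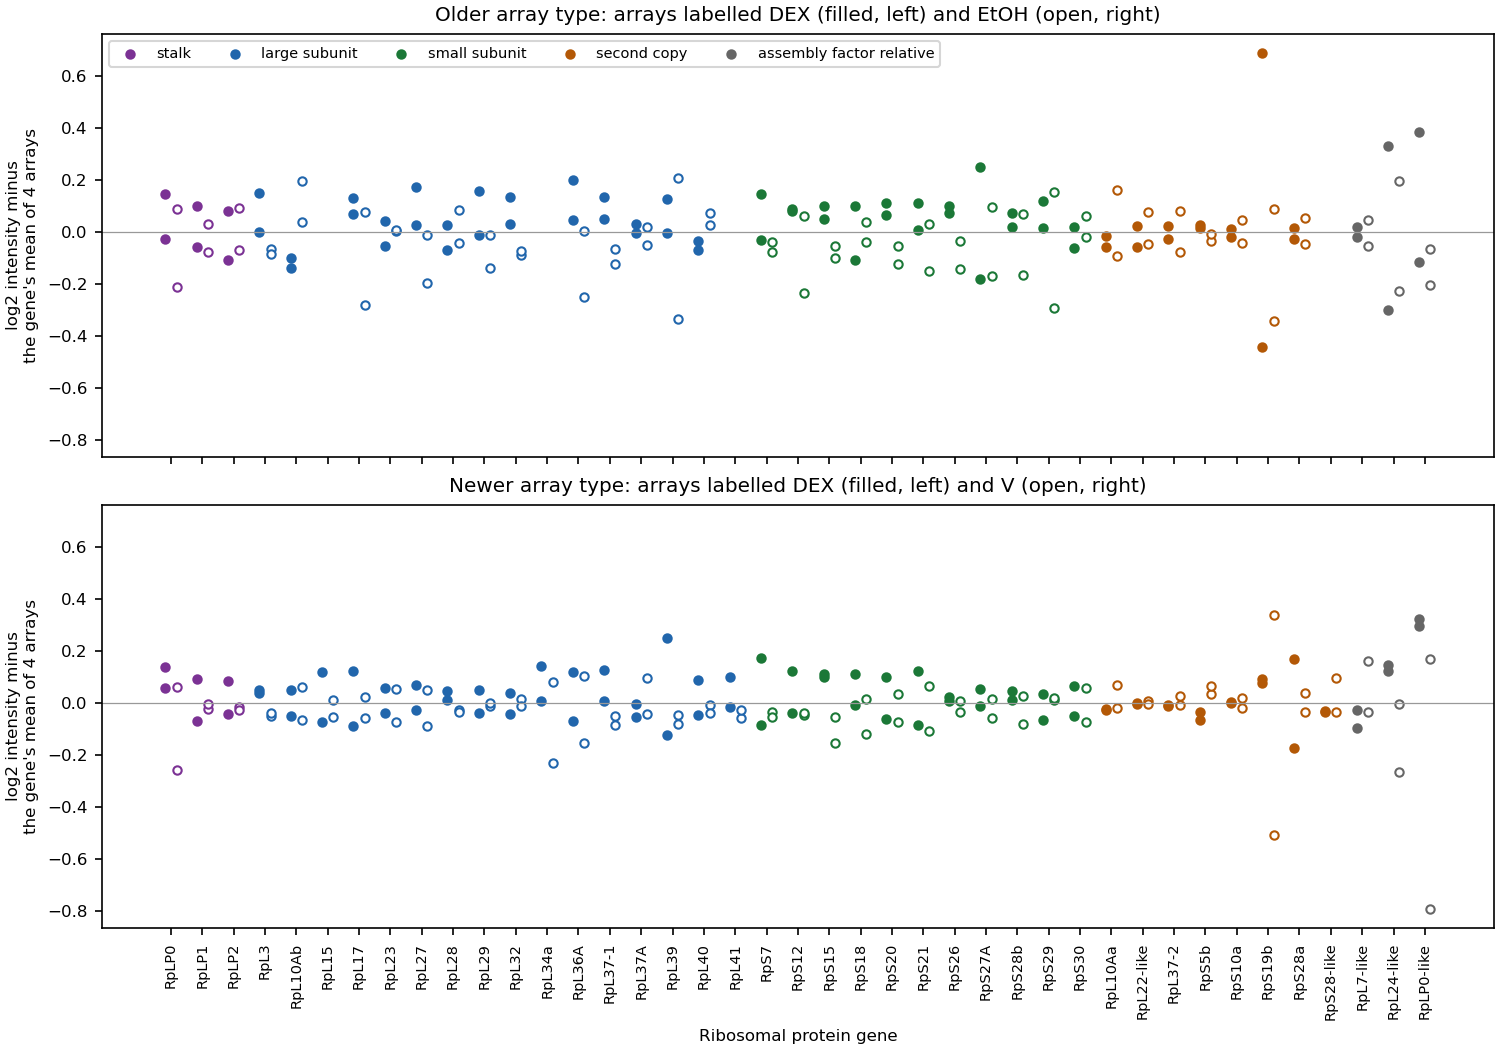
Log2 intensity of every ribosomal protein gene on each array, minus the gene's mean of the 4 arrays of its type (y axis); filled points are arrays labelled DEX, open points EtOH (older type) or V (newer type), and colours give the role. DEX and control points are intermixed for most subunit genes, and RpS19b, RpL24-like and RpLP0-like spread the most.

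The second copies are genes whose proteins duplicate a subunit protein, and several are known from the fly germ line. Of the 8, 4 reached the minimum on the older type and 5 on the newer, 1 and 1 of them with a positive difference, and 0 passed. RpS10a lay below the minimum on both types, RpS28a and RpS5b on the older, and RpL10Aa and RpL22-like on the newer. RpS19b had the widest spread of the family on the older type. Its DEX arrays had 11.59 and 10.46 and its EtOH arrays 10.99 and 10.56 on the older type, and it had 10.55 and 10.54 with DEX against 10.80 and 9.95 with V on the newer. Its differences of 0.25 ± 0.39 and 0.17 ± 0.34 were smaller than their SE.

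RpS5b, the second gene for a protein of the small subunit head, had 7.27 and 7.30 with DEX against 7.37 and 7.40 with V on the newer type. Of the members that reached the minimum there, it was the only one with both DEX arrays below the V arrays, by -0.10 ± 0.10 (adjusted p = 0.865). On the older type its values of 3.809 and 3.799 with DEX against 3.749 and 3.776 with EtOH lay below the minimum and ran the other way. RpL37-2, the copy of RpL37-1, had 6.13 and 6.18 with DEX against 6.23 and 6.08 with EtOH, and 5.69 and 5.68 with DEX against 5.72 and 5.69 with V. Its groups overlapped on both types, with differences of -0.0017 ± 0.13 and -0.020 ± 0.074. Of the copies of RpS28b, RpS28a had 5.03 and 5.37 with DEX against 5.24 and 5.16 with V, and RpS28-like had 4.01 and 4.01 with DEX against 4.14 and 4.01 with V. RpL10Aa, the copy of RpL10Ab, had 4.65 and 4.69 with DEX against 4.62 and 4.87 with EtOH, a difference of -0.072 ± 0.11. Germline markers were tested for 5 of the 6 read on each type, and 0 passed. Their mean log2 ran from 3.62 (dj) to 6.50 (aub) on the older type and from 3.96 (Mst87F) to 9.32 (aub) on the newer.

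The 3 relatives of ribosomal proteins are RpLP0-like, RpL24-like and RpL7-like, whose yeast counterparts Mrt4, Rlp24 and Rlp7 act in the assembly of the large subunit. RpLP0-like had the largest difference of the whole family on both array types. It had 6.91 and 7.41 with DEX against 6.82 and 6.96 with EtOH, and 8.95 and 8.97 with DEX against 8.82 and 7.86 with V. On the older type the groups overlapped, and on the newer the distance came mainly from the second V array, which was far below the other 3. Without that array the newer-type difference was 0.14. Its differences were 0.27 ± 0.21 and 0.62 ± 0.39, and the fit of both types gave 0.45 ± 0.22 (adjusted p = 0.901). RpL24-like had 12.54 and 12.52 with DEX against 12.39 and 12.13 with V, above on the newer type by 0.27 ± 0.13, and 7.72 and 7.09 with DEX against 7.58 and 7.16 with EtOH on the older. There the first array of each group was the high one, and the difference was 0.031 ± 0.27. RpL7-like had 13.02 and 12.95 with DEX against 13.21 and 13.01 with V, the lowest difference of the family on the newer type at -0.12 ± 0.11. On the older type its difference was 0.0028 ± 0.17.

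Across the family the small differences leaned towards DEX on both types as labelled. On the older type 24 of 34 members had a positive DEX minus EtOH difference (median 0.12 log2), beside 41.1% of all probe sets tested (median -0.014). Against V, 30 of 38 members of the newer type had a positive difference, beside 47.6% of all. The median was 0.043, beside -0.0045 over all, and it turned to -0.026 when arrays were centred on bright probe sets outside the family. With the sign of the newer type turned, 8 of its 38 members were positive and the median was -0.043, opposite to the older type. Counted by order, 10 of 34 members had both DEX arrays above both EtOH arrays, where 13.0% of all probe sets did, and 2 had both below, where 13.6% did. Of the newer type's 38 members, 8 had both DEX arrays above both V arrays, where 13.0% of all did, and 1 had both below, where 23.9% did. The groups of the other 22 and 29 members overlapped.

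As labelled, bright probe sets outside the family leaned the same way. Of the 1369 probe sets in the brightest 10% of the older type that are no members, 63.6% had a positive difference and the median was 0.090 log2. Of 1842 such probe sets on the newer type, 70.2% were positive and the median was 0.094, above that of the members. Both DEX arrays stood above both controls for 29.4% and 21.1% of the members, beside 30.2% and 26.1% of these probe sets, and below both for 5.88% and 2.63% of the members, beside 13.1% and 7.6%. The members include dim second copies, and the bright probe sets were not matched to the members in level. Mean log2 of the bright probe sets ran from 8.83 to 19.0 on the older type and from 10.3 to 21.2 on the newer. That of the subunit genes ran from 5.48 to 18.5 and from 13.8 to 20.5. Of the 27 and 30 subunit genes alone, 74.1% and 90% had a positive difference. Both DEX arrays stood above both controls for 37.0% and 20% of them, and below for 7.41% and 0%. With the arrays centred on these bright probe sets, the members' median on the older type became 0.028.

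**Figure D3:**
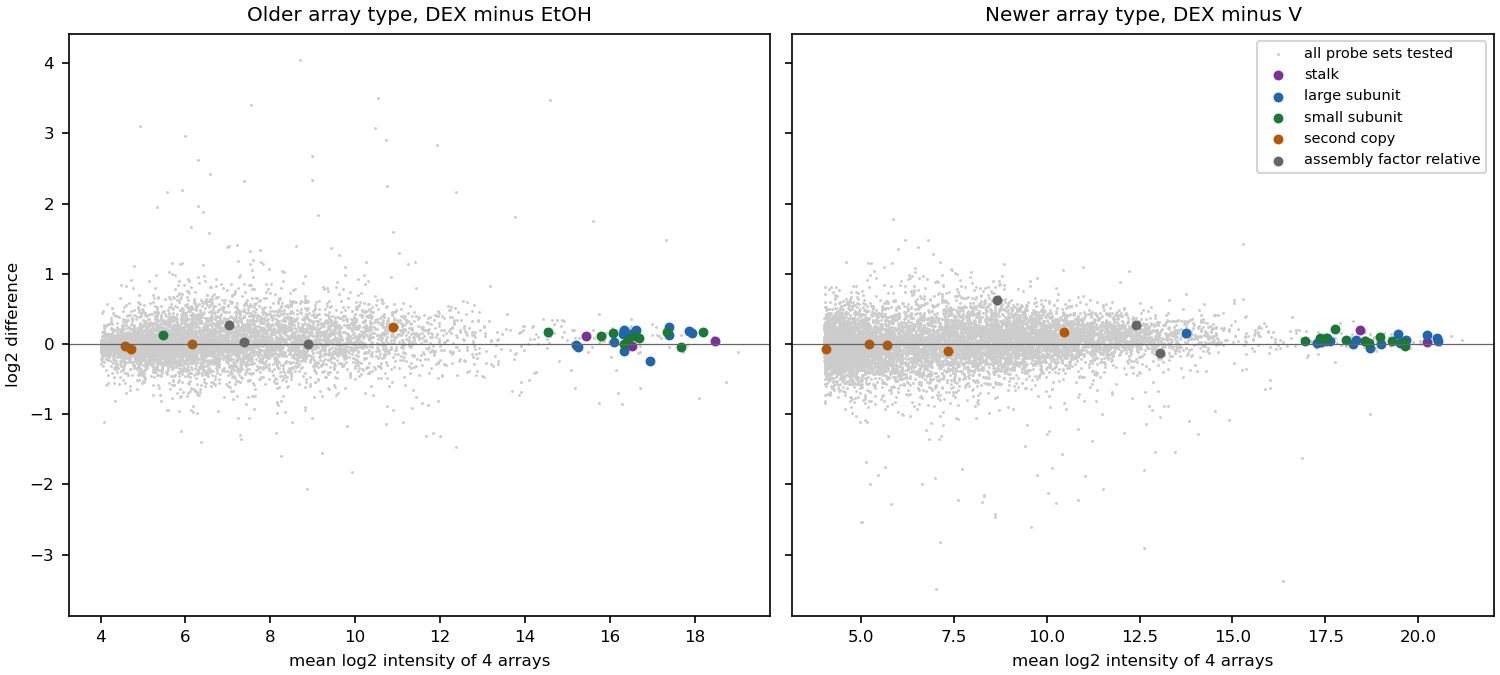
Mean log2 intensity of the 4 arrays of a type (x axis) against the DEX minus control log2 difference (y axis) for every probe set tested (grey) and for the ribosomal protein genes (coloured by role). Most subunit genes sit at the bright end, within 0.25 of 0, while differences of other probe sets reach 4.04 on the older type and -3.49 on the newer.

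The lean also moved with single arrays. The median deviation of the subunit genes from their own means was 0.030 and 0.069 on the DEX arrays against 0.0022 and -0.069 on the EtOH arrays of the older type. It was -0.0048 and 0.054 on the newer DEX arrays against 0.011 and -0.055 on the V arrays. The second control array of each type was thus the low one, and on the second V array 27 of 30 subunit genes lay below their mean. The bright probe sets outside the family had a median deviation of -0.13 on that V array. Without the second EtOH array the members' median difference on the older type was 0.032, and without the second V array that on the newer type was 0.0072. Without the second DEX array the medians were 0.069 against EtOH and 0.0059 against V. On the newer type the median was 0.071 without the first DEX array and 0.078 without the first V array. The part of these arrays in the lean was not tested further.

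**Figure D4:**
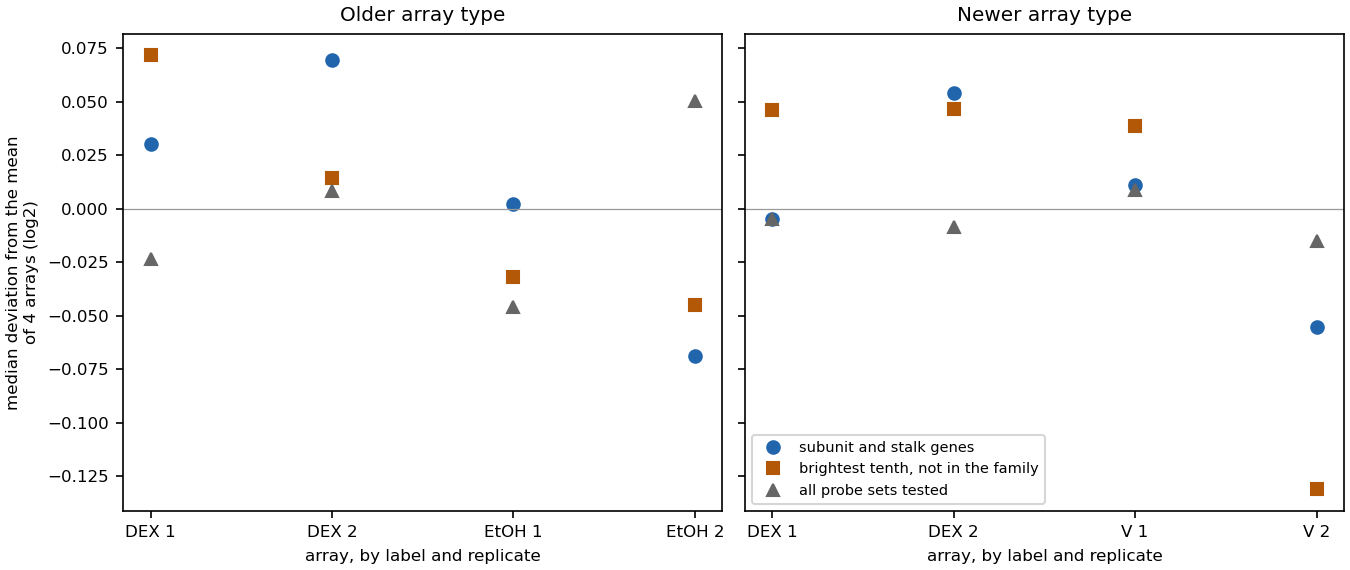
Median deviation from each probe set's mean of the 4 arrays (y axis, log2) on each array (x axis, by label and replicate), for the subunit genes including the stalk (circles), the brightest 10% of probe sets, outside the family (squares) and all probe sets tested (triangles). The second EtOH array and the second V array are lowest for the subunit genes, at -0.069 and -0.055.

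In the fit of both types, with array type as a block, 26 of 36 members had a positive difference and the median was 0.077 log2, beside 51.3% of all genes and a median of 0.0030. The older type alone gave 0.12, and centring on bright probe sets turned the median of both types to -0.0021. With the newer sign turned, 21 of 36 members were positive with a median of 0.014, beside 46.5% of all genes and a median of -0.0057, and 0 members passed. The smallest unadjusted p-values of the members belonged to RpS15, at 0.18 ± 0.055 (limma unadjusted p = 0.012, adjusted p = 0.901), and RpL37-1, at 0.16 ± 0.051 (limma unadjusted p = 0.015, adjusted p = 0.901). RpL3, RpLP0-like, RpS26 and RpS20 followed, at 0.12 ± 0.057, 0.45 ± 0.22, 0.10 ± 0.053 and 0.11 ± 0.064. With the newer sign turned RpS15, RpL37-1, RpL3 and RpLP0-like stood at -0.030, 0.025, 0.032 and -0.18. RpL3, RpL37-1, RpS15 and RpS26 had both DEX arrays above both controls on each type, 4 of 36 members, and 0 had both below. This order rests on the newer labels: with that type turned, RpS5b alone was above on both, 1 of 36 members and 1.81% of all genes. RpS5b lay below the minimum level on the older type. Of all 8404 genes, 2.52% were above on both types and 2.64% below on both, and of the 854 genes outside the family that are in the brightest 10% of both types 7.96% were above. With quantile normalisation repeated, or with the arrays centred on the bright probe sets, RpS15 alone kept that order, which 3.51% and 3.75% of the bright genes then had.

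For no member did the difference between the effects on the array types pass the test. The newer minus older difference had a median of -0.027 log2 over the 36 members, beside 0.011 over all genes. It was largest for RpLP0-like, at 0.35 ± 0.46, and among subunit genes for RpL10Ab, at 0.24 ± 0.13 (unadjusted p = 0.106, adjusted p = 1.000). For the subunit genes the 95% bounds of this difference lay between -0.73 and 0.65. The CLK targets, by comparison, differed between the types by -4.48 to -6.11.

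Some genes were read by several probe sets of the newer type, and the difference is given for each. RpL3 was read at 17.59 and 17.60 with DEX against 17.50 and 17.51 with V, and by another probe set at 15.69 and 15.61 with DEX against 15.52 and 15.53 with V. Both gave DEX above V, by 0.087 and 0.13, while the third lay near 3.31 on all 4 arrays. RpS29, a zinc-binding protein of the small subunit head, was read at 19.59 and 19.69 with DEX against 19.67 and 19.68 with V, and by its dimmest probe set at 3.97 and 4.31 with DEX against 4.34 and 4.32 with V. Its differences were -0.032 on the brightest, -0.044 on the second and -0.19 on the dimmest probe set. RpS7, whose brightest probe set differed by 0.088 ± 0.12, had -0.12 ± 0.13 on its dim probe set, and RpS30 had 0.013 ± 0.083 and 0.044 ± 0.044. Of the 41 representing probe sets of the newer type, 14 end in _s_at and 3 in _a_at and may read more than 1 transcript or gene, RpL3, RpS26 and RpL32 among them. The members' probe sets on the older type are all plain, and the one of RpS29 read 5.50 and 5.60 with DEX against 5.19 and 5.63 with EtOH.

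Genes that work with the family were tested in the same fits, and 0 members of the lists below passed in any limma fit. Rack1, a ribosomal protein whose symbol lies outside the pattern, differed by 0.070 ± 0.12 from EtOH and by 0.19 ± 0.10 from V. Of 24 genes of ribosomal RNA synthesis and ribosome assembly, 10 were positive against EtOH and 15 against V, with medians of -0.014 and 0.10. Their differences ran from -0.39 to 0.55 against EtOH and from -0.27 to 0.50 against V. Nopp140 and bys had the smallest p-values of the list in the fit of both types. Nopp140, a nucleolar chaperone, had 7.03 and 6.92 with DEX against 6.27 and 6.59 with EtOH, a difference of 0.55 ± 0.17 (adjusted p = 0.612), and 0.17 ± 0.24 on the newer type. bys, a factor of small subunit assembly, differed by 0.21 ± 0.17 and 0.32 ± 0.26.

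Of 6 elongation factors and other transcripts of the same pyrimidine-rich class, 5 were positive against EtOH and 4 against V. eEF1gamma, a subunit of the exchange factor of elongation, differed by 0.24 ± 0.13 and 0.028 ± 0.10, and Tctp, a growth-linked protein, by 0.16 ± 0.13 and 0.060 ± 0.089. Of the regulators of ribosomal protein genes, 4 of 6 were positive against EtOH and 3 of 7 against V. Dref, a DNA-binding factor of growth gene promoters, had 5.53 and 5.43 with DEX against 5.33 and 5.51 with EtOH, and 7.94 and 8.36 with DEX against 7.48 and 7.50 with V. Trf2 had 8.002 and 7.268 with DEX against 8.070 and 7.886 with EtOH, and 6.59 and 6.56 with DEX against 6.81 and 7.19 with V. Dref differed by 0.063 ± 0.12 from EtOH and by 0.66 ± 0.19 from V, and Trf2 by -0.34 ± 0.27 and -0.42 ± 0.18, with limma adjusted p of 1.000 against EtOH and 0.865 against V for each.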

How the data were processed

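RNA of 8 arrays, 2 per group and type, was read, giving each probe set an intensity. The deposited intensity values were made with GCRMA, version not stated, per the submitters' processing notes; GCRMA corrects background by probe sequence, normalises by quantiles and summarises probes. The 2 tables were normalised separately, so no level was compared between them. Values were put on the log2 scale without a pseudocount. Control probe sets, 44 and 183, were left out, and probe sets with a mean log2 of at least 4 were tested two-sided in R 4.3.3 by limma 3.58.1, using lmFit and trended eBayes, with Benjamini-Hochberg adjustment over all features tested and a threshold of 0.05. Each array type was fitted alone, then both with type as a block (each gene by its brightest probe set on each type), then with an interaction term, given as newer minus older. The scripts were tested on simulated data. With 2 residual degrees of freedom per type, each fit borrows much of its variance from other probe sets, and the number of arrays limits the precision.

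Names come from the platform annotation; probe sets with several symbols, of which 2 older and 3 newer ones include a member, were left out. The members, their roles and the other lists were chosen with earlier results of these data known. Named members were the 4 highest and 4 lowest differences per type, the stalk, gene copies, the 6 smallest p-values of both types and the 4 whose probe sets disagree most. RpL15, RpL32, RpL34a, RpL41, RpS12 and RpS27A, and below REPTOR, were named outside that rule after their values were seen. Genes most alike in pattern were not sought, since each correlation would rest on 4 arrays, and promoter motifs were not analysed here. Alternatives were other scalings, other minimums, no trend, plain probe sets, means over probe sets, the natural log leaving out each array, and, added after seeing the data, a replicate block and the newer type's sign turned.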

Additional observations from a re-analysis of the deposited data

Results flagged for a closer look

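No ribosomal protein gene was singled out for a closer look. Among the genes used to check the labels, the effect of DEX differed between the array types in vri, cwo and Pdp1, whose newer minus older differences were -6.11 ± 0.34, -5.81 ± 0.72 and -4.48 ± 0.29 log2 (SE, limma interaction term, adjusted p = 0.0011, 0.040 and 0.0020). In each of them both DEX arrays stood above both EtOH arrays on the older type and below both V arrays on the newer.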

How the results depend on the processing

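Under all 68 alternatives run over the 4 fits, 0 members passed. Some could not change a call, since the natural log, and the turned sign on the newer type alone, leave every p-value as it was. With every array kept, the newer type called 14 of all features with variance shared by all 8 arrays. Centring on bright probe sets called 1 there, and the other settings 0. The fit of both called 18 with the newer sign turned and otherwise 0, and the difference 6 to 30. The smallest member adjusted p (limma) ranged from 0.0641 to 0.865 on the older type, from 0.214 to 0.999 on the newer, from 0.554 to 1.000 in the fit of both and from 0.417 to 1.000 for the difference. The lowest, 0.0641, came without the second DEX array of the older type, which leaves the DEX group 1 array assumed to vary like the EtOH pair. Over all probe sets of the older type that setting called 455, and the one without the first DEX array 263, against 27; centring on bright probe sets called 214, and median centring, and leaving out either EtOH array, 0. Leaving aside the turned sign, the members' median ran from 0.027 to 0.142 on the older type, from -0.026 to 0.078 on the newer, from -0.0021 to 0.099 in the fit of both and from -0.062 to 0.020 for the difference. On the older type it was 0.027 with quantile normalisation repeated, 0.028 with centring on bright probe sets outside the family, and 0.032 to 0.114 when 1 array was left out. Centring on bright probe sets gave -0.026 on the newer type and -0.0021 in the fit of both; quantile normalisation gave a median of 0.020 for the difference between types. The count of members above their controls on both types was 5 with median centring, and 1 with quantile normalisation repeated and 1 with centring on bright probe sets; these counts were added after seeing the data. So was turning the sign of the newer type, which gave medians of -0.043 on that type and 0.014 in the fit of both. Centring on bright probe sets moved the median of all features by -0.090 on the older type, -0.068 on the newer and -0.079 in the fit of both. In size these shifts exceed the members' medians of 0.043 on the newer type and 0.077 in the fit of both, but not 0.117 on the older. Median centring and quantile normalisation moved it by 0.024 or less. The labels number only 1 of the 2 control arrays of each type; a replicate block that takes the other as 1, also added after seeing the data, left 0 members called and the medians at 0.117, 0.043, 0.077 and -0.027. Over all features it called 34 on the older type, 0 on the newer, 0 in the fit of both and 6 against 25 for the difference. The deviations of same-numbered arrays correlated at 0.26 on the older type and -0.023 on the newer across probe sets. On the older type replicate 2 was the higher in both groups for 5438 of 10250 probe sets, and replicate 1 for 1674. On the newer type replicate 1 was the higher in both for 4461 of 12436, and replicate 2 for 1917. Whether same-numbered arrays share a culture or batch is not given in the labels and was not tested.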

Other observations

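REPTOR, the gene of a transcription factor that TORC1 holds back when nutrients are plentiful, stood out among the regulators of the family, and it was singled out after its values were seen. It had 11.40 and 12.21 with DEX against 10.69 and 10.65 with EtOH on the older type, and 9.28 and 8.34 with DEX against 10.46 and 10.89 with V on the newer. Its groups overlapped on neither type. The differences of 1.14 ± 0.29 and -1.87 ± 0.42 did not pass (limma adjusted p = 0.423 and 0.865), nor did the newer minus older difference of -3.00 ± 0.53 (adjusted p = 0.172). Its effects thus had opposite signs on the types, as had those of the 4 CLK targets. Both DEX arrays above the controls on the older type and below on the newer was an order that 1.81% of the 8404 genes had. Whether REPTOR responds to CLK was not tested.

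The median gap between the 2 DEX arrays was 0.099 log2 over the members of the older type and 0.099 over those of the newer, beside 0.22 and 0.15 for bright probe sets outside the family. Between control arrays it was 0.13 for EtOH and 0.078 for V, beside 0.19 and 0.24.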
